A study of Mus musculus with 15 samples.

Results

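The chemokine ligands are a family of small secreted proteins, a few of them held on the cell membrane, that direct the movement of white blood cells. The members were taken by name: every row of the deposited gene counts whose Ensembl identifier maps to a protein-coding mouse symbol of the form Ccl or Cxcl with a number and an optional letter, or to Cx3cl1 or Xcl1. The rule found 34 genes among 37991 rows, 20 of the CC type, 12 of the CXC type, and Cx3cl1 and Xcl1. A further match, Cxcl11, is annotated as a polymorphic pseudogene and was left out. Ccl21a, Ccl21b and Ccl27b were not analysed here. In the reference annotation 12 members lie on chromosome 11, 10 on chromosome 5 and 4 on chromosome 8.

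The family was measured by RNA sequencing of 15 adipose libraries from C57BL/6 mice. There were 3 libraries of inguinal white fat from IL-33 knockout mice at postnatal day 24 (numbered 2, 3 and 4) and 4 from wild-type mice of that age. Brown adipose tissue at postnatal day 0.5 gave 4 libraries labelled IL-33 knockout and 4 wild-type libraries. IL-33 is a cytokine released by damaged or stressed cells that signals through the receptor ST2, and the series title names both in connection with beige and brown fat cells. Which part of Il33 was disrupted is not stated in the labels. No label ties a library to its own animal, so the p-values speak of the spread from library to library, and that spread could be technical. Tissue and age differ together, and their parts in any difference between the depots cannot be told apart.

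Total counts ran from 26059635 to 53923009 per library. Levels are given as TMM-scaled CPM, counts relative to a library size that was corrected for a few abundant genes by the TMM factor. Il33 stood at 0.346, 0.471 and 0.0791 CPM in the inguinal knockout libraries, against 3.45, 4.61, 3.82 and 3.55 CPM in the inguinal wild-type libraries, and the groups were far apart. In brown tissue it stood at 0.413, 1.75, 1.41 and 0.594 CPM in the labelled knockout libraries, against 1.82, 3.21, 2.01 and 1.73 CPM in the wild-type libraries. Labelled knockout library 2 overlapped the wild-type range, and the brown group is therefore called labelled knockout. Labelled knockout library 1 also stood apart: its score on the leading principal component of the brown libraries (39.6% of variance) was -38.1, against 24.7 to 58.8 for the other labelled knockout libraries and -29.0 to -21.1 for the wild-type ones. Brown values that gained a call or moved by over 1.5 times when it was left out are also given without it. Fat markers were present in every library, the 10 adipocyte genes summing to 26553 to 30497 CPM in inguinal knockout, 26349 to 28405 in inguinal wild-type, 12342 to 14605 in brown labelled knockout and 13363 to 15268 in brown wild-type tissue.

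Chemokines bind receptors that signal through inhibitory G proteins, and cells move up the gradient of ligand, which is held on matrix sugars. In fat, ligands of the receptor CCR2 draw in monocytes, eotaxins draw in eosinophils, and CXCL12 from stromal cells holds cells that carry CXCR4. CXCL9 and CXCL10 are induced by interferon and attract activated T and natural killer cells through CXCR3.

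The promoters of Cxcl9 and Cxcl10 are shown because these neighbours on chromosome 5, which share the receptor CXCR3, were both lower in inguinal knockout tissue while their promoter motifs differed. Of the 34 members, 24 had a promoter in the RefSeq table used (GRCm38.p6), searched over the 250 bases before the gene's start on both strands. The motifs were the interferon-response type (GAAA, any NN, GAAA), the STAT-type TTCNNNGAA, the AP-1 type TGANTCA and the NF-kB consensus. Capitals mark every match. Both sequences run 5′ to 3′ on the gene's own strand, the minus strand, at chr5:92328080-92328329 for Cxcl9 and chr5:92348890-92349139 for Cxcl10.
Cxcl9: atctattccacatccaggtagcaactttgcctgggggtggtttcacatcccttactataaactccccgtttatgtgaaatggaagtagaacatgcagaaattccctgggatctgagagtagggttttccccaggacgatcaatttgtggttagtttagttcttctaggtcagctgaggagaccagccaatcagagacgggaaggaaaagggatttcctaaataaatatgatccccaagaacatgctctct
Cxcl10: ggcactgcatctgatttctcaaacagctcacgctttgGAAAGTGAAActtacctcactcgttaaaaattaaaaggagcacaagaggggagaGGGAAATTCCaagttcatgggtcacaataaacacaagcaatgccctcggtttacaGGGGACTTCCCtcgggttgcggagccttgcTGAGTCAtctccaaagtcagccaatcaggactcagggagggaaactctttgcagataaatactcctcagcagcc
The Cxcl10 window holds an interferon-response match beginning 213 bases before the start, an NF-kB match at 159, overlapping NF-kB matches at 104 and 103, and an AP-1 match at 74. The Cxcl9 window holds none of the 4 patterns, which says only that these letters are not in these 250 bases. Interferon-response matches were found in 3 of the 24 member promoters (Cxcl10, Cxcl14 and Ccl19), against 2.98% of 32851 mouse promoters of the same length. STAT-type matches were found in 2 of 24 (Cxcl14 and Ccl17), against 7.02%, and AP-1 matches in 3 of 24 (Cxcl10, Ccl9 and Ccl27a), against 6.75%. NF-kB matches were found in 7 of 24, against 7.25%: Cxcl1, Cxcl2, Cxcl3, Cxcl10, Ccl1, Ccl9 and Ccl20. The 24 members had 27 promoters and a member counted if any of its promoters matched, whereas the shares over all promoters count each promoter singly. A match is a run of letters, not a bound site.

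A mean of 0.5 CPM, here relative to the plain library total, over the 15 libraries was reached by 18 members: Ccl2, Ccl5, Ccl6, Ccl7, Ccl8, Ccl9, Ccl11, Ccl12, Ccl22, Ccl24, Ccl25, Ccl27a, Cxcl9, Cxcl10, Cxcl12, Cxcl14, Cxcl16 and Cx3cl1. Ccl22 lay just inside, at 0.529, and Cxcl13 just outside, at 0.473. In at least 1 group the mean was reached by 22 members, the additional ones being Ccl3, Cxcl1, Cxcl2 and Cxcl13. The other 12 were Ccl1, Ccl4, Ccl17, Ccl19, Ccl20, Ccl26, Ccl28, Cxcl3, Cxcl5, Cxcl15, Cxcl17 and Xcl1, with 0 to 107 counts over all libraries. Their highest value in any library was 1.13 CPM, for Ccl4 in brown labelled knockout library 1. Ccl26 and Ccl28 had 0 counts in all 15 libraries, which allows a level of up to 0.0538 to 0.1145 CPM per library (3 counts, counting error only).

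The summed family was 375 to 404 CPM in inguinal knockout libraries, 417 to 500 CPM in inguinal wild-type libraries, 124 to 179 CPM in brown labelled knockout libraries and 147 to 182 CPM in brown wild-type libraries. Cxcl12 alone made up 57.8% to 63.1%, 52.2% to 59.6%, 38.9% to 56.3% and 59.2% to 67.0% of these sums, in the same order of groups. Per kilobase of exon, Cxcl12 also had the highest level in each group. In inguinal knockout tissue it stood at 29.0 ± 2.34 CPM per kilobase (SD, n = 3), with Ccl6 beside it at 28.4 ± 1.15, a gap smaller than their SDs. Next were Ccl11 at 17.7 ± 0.880, Ccl8 at 8.72 ± 1.49 and Ccl9 at 7.68 ± 0.241 CPM per kilobase, and Ccl8 and Ccl9 did not differ beyond their spread. In inguinal wild-type tissue the order was Cxcl12 (31.95 ± 3.14; n = 4), Ccl6 (28.4 ± 6.85), Ccl11 (25.3 ± 2.11), Ccl9 (11.1 ± 2.43) and Cxcl9 (9.99 ± 1.88). Only the step between Ccl11 and Ccl9 in that order exceeded both SDs. In brown labelled knockout tissue Cxcl12 (8.52 ± 0.731; n = 4), Ccl9 (8.40 ± 4.49), Ccl11 (7.91 ± 3.51) and Ccl6 (7.33 ± 3.95) could not be ranked beyond their spread. In brown wild-type tissue Cxcl12 stood at 12.2 ± 1.20 CPM per kilobase (n = 4), above Ccl6 (5.95 ± 1.41), Ccl11 (5.39 ± 1.20) and Ccl9 (4.60 ± 1.18), which did not differ beyond their spread. Exon lengths come from another annotation and build than the counts, so these ranks are approximate.

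**Figure D1:**
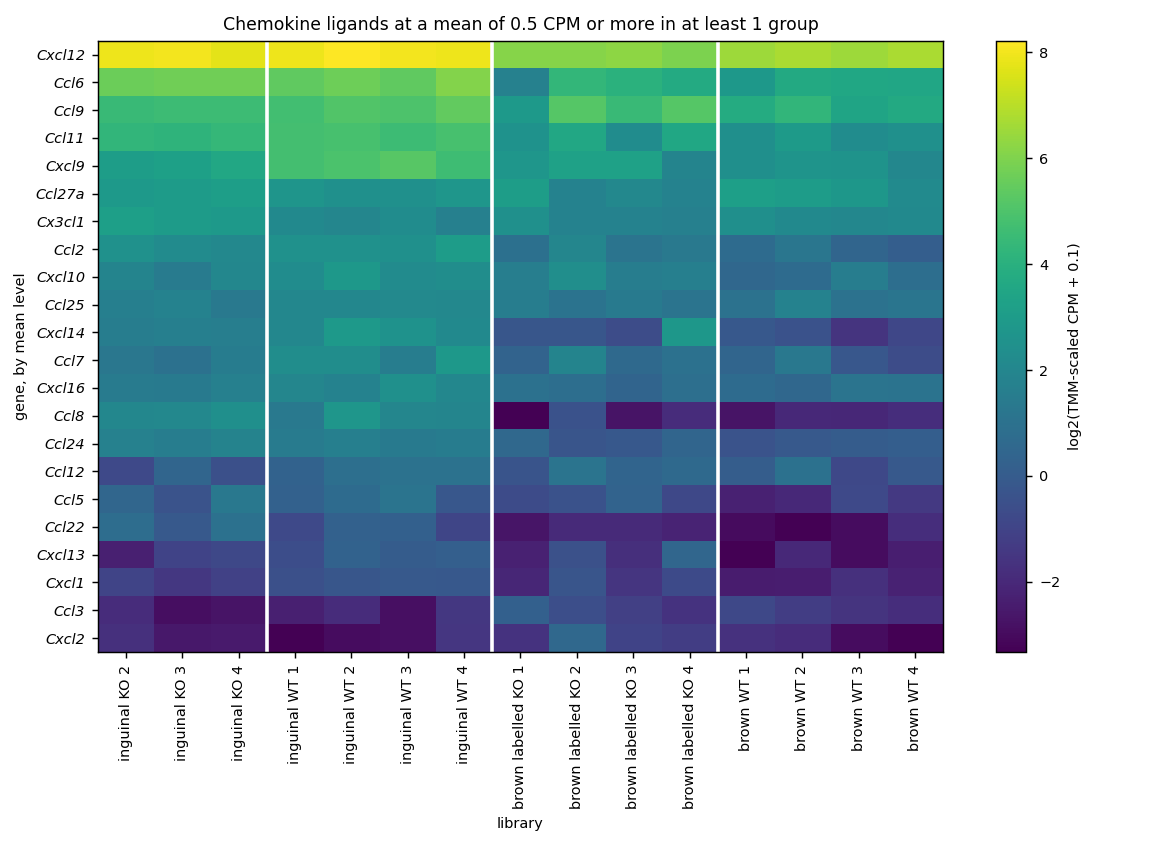
Level of the 22 chemokine ligands that reached a mean of 0.5 CPM in at least 1 group, as log2 of TMM-scaled CPM plus 0.1, in each of the 15 libraries (columns, with white lines between groups). Cxcl12 is the brightest row throughout, and most rows are brighter in the inguinal columns, with Ccl3 and Cxcl2 among the exceptions.

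In inguinal fat the knockout libraries held less of 10 chemokine ligands and more of 2. Cxcl9, Cxcl10, Ccl7, Ccl9, Ccl11, Ccl12, Cxcl1, Cxcl13, Cxcl14 and Cxcl16 were lower, and Cx3cl1 and Ccl27a were higher. Of the 34 members, 21 had enough counts to be tested and 13 did not. Cxcl1 and Cxcl13 had enough only through the wild-type libraries, where they were higher. Their calls and the gaps between their groups are therefore a description. The test was edgeR's quasi-likelihood F-test over 15710 genes, with a Benjamini-Hochberg adjusted p below 0.05 as the threshold. Over all genes tested 15.3% were higher, 13.3% lower and 28.6% changed in either direction. The tested members' median log2 change was -0.46, beside -0.02 for all genes tested. The CPM of the groups did not overlap for 2 members that were higher and 10 that were lower, against 18.3% and 18.5% of all genes tested. At an unadjusted p below 0.05 there were 14 members, against 39.9% of genes. In whole fat tissue, fewer cells of a type and less RNA per cell cannot be told apart.

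Among the CXCR3 ligands, Cxcl9 (ENSMUSG00000029417) had 8.43, 9.21 and 11.9 CPM in knockout libraries 2, 3 and 4, against 27.3, 30.8, 37.7 and 24.6 CPM in wild-type libraries 1 to 4. Every knockout library was far below every wild-type library. The group means were 9.84 ± 1.80 CPM in knockout (SD, n = 3) and 30.1 ± 5.66 CPM in wild-type tissue (n = 4), a change of -1.59 in log2 terms (SE 0.16, edgeR adjusted p = 1.79e-05). That call held in all 15 alternative fits. Cxcl10 (ENSMUSG00000034855) had 3.63, 2.72 and 4.01 CPM in knockout libraries, against 4.83, 6.94, 4.69 and 4.97 CPM in wild-type libraries. The groups did not overlap, but the highest knockout and the lowest wild-type library were close, and wild-type library 2 was well above the others. The log2 change was -0.62 (SE 0.19, edgeR adjusted p = 0.0266), and the call was lost without knockout library 3 or wild-type library 2 (edgeR adjusted p = 0.123 and 0.0862). Exons of Cxcl10 overlap those of Art3 on the other strand by 133 bases in the reference annotation, and Art3 fell as well (log2 change -0.51, edgeR adjusted p = 0.00114). No source used here says whether the counting used strand, so reads of such pairs cannot be told apart.

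**Figure D2:**
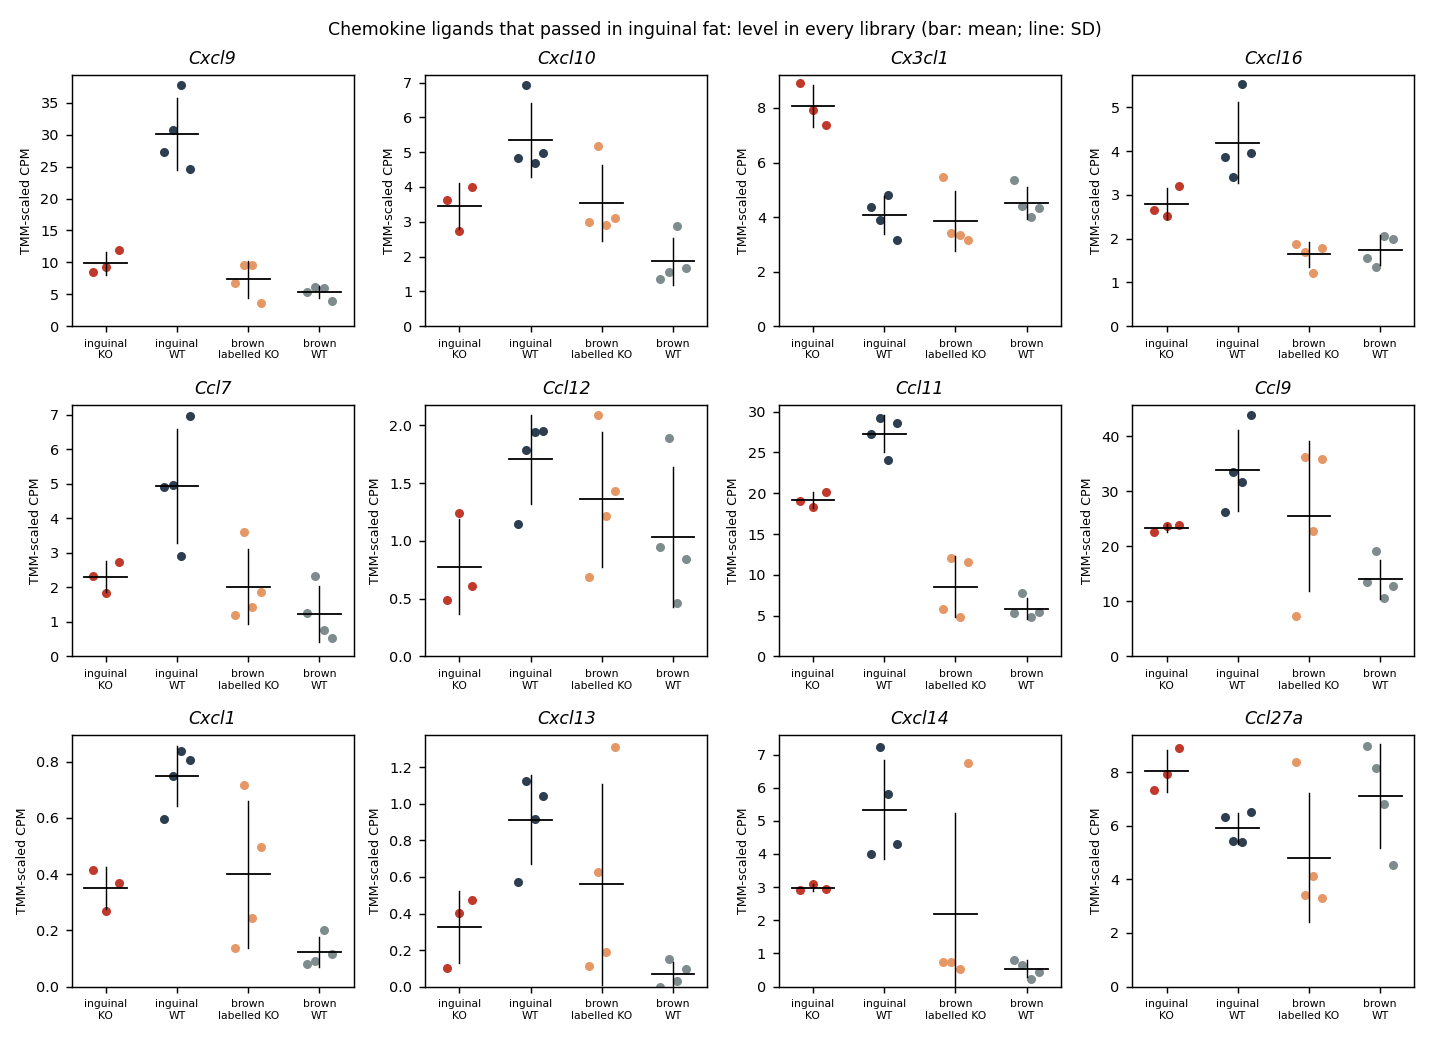
TMM-scaled CPM of the 12 chemokine ligands that passed in inguinal fat, 1 panel per gene, with 1 point per library in the 4 groups, a bar at the group mean and a line for 1 SD. For Cxcl9 the 3 inguinal knockout points lie at 8.43 to 11.9 and the 4 wild-type points at 24.6 to 37.7, and Cx3cl1 shows the opposite order.

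Of the ligands that attract monocytes through CCR2, Ccl7 and Ccl12 passed and Ccl2 did not. Ccl7 (ENSMUSG00000035373) had 2.32, 1.85 and 2.74 CPM in knockout libraries, against 4.91, 4.96, 2.90 and 6.96 CPM in wild-type libraries. Wild-type library 3 came near the knockout range and the other wild-type libraries lay clear of it. Its log2 change of -1.10 (SE 0.26, edgeR adjusted p = 0.00663) held without any single library. Ccl12 (ENSMUSG00000035352), a mouse CCR2 ligand close to Ccl2, had 0.484, 1.24 and 0.607 CPM in knockout libraries, against 1.14, 1.79, 1.95 and 1.96 CPM in wild-type libraries. Knockout library 3 overlapped wild-type library 1. Its log2 change of -1.13 (SE 0.34, edgeR adjusted p = 0.0232) no longer passed without knockout libraries 2 or 4 or wild-type libraries 2, 3 or 4 (edgeR adjusted p = 0.0502 to 0.0787). Ccl2 (ENSMUSG00000035385), the main monocyte attractant of the group, had 5.70, 4.61 and 4.04 CPM in knockout libraries, against 5.66, 5.70, 5.49 and 8.26 CPM in wild-type libraries. Its groups overlapped at knockout library 2, wild-type library 4 lay above the rest, and the log2 change of -0.39 (SE 0.19) missed the threshold (edgeR adjusted p = 0.131). Ccl8 (ENSMUSG00000009185), listed beside these genes but acting on CCR8 in mice, had 3.94, 4.10 and 5.33 CPM in knockout libraries, against 2.44, 6.60, 3.78 and 3.72 CPM in wild-type libraries. The wild-type range enclosed the knockout range, and its log2 change of 0.13 (SE 0.27) missed the threshold (edgeR adjusted p = 0.763). In the same libraries 2 of 13 macrophage and monocyte markers were lower, a share near the 13.3% of all genes. The sum of these markers ran from 362 to 453 CPM in knockout and from 381 to 512 CPM in wild-type tissue, with no marker at 0. Their part in these values was not tested.

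Of the eotaxins, ligands of the eosinophil receptor CCR3, Ccl11 changed and Ccl24 did not pass. Ccl11 (ENSMUSG00000020676) had 19.0, 18.3 and 20.2 CPM in knockout libraries, against 27.3, 29.2, 24.1 and 28.6 CPM in wild-type libraries. Both groups were tight and did not overlap, giving a change of -0.50 in log2 terms (SE 0.10, edgeR adjusted p = 0.00225) that held without any single library. Ccl24 (ENSMUSG00000004814) had 3.25, 2.82 and 3.48 CPM in knockout libraries, against 2.73, 3.02, 2.48 and 2.78 CPM in wild-type libraries. The groups overlapped, and the log2 change was 0.22 (SE 0.18, edgeR adjusted p = 0.376). Among eosinophil markers 1 of the 2 tested, Ear2, was lower, against 13.3% of all genes, and 1 gene is no result about the list. The 7 listed genes summed to 1.55 to 2.35 CPM in knockout and 3.09 to 3.74 CPM in wild-type libraries. Ear1 was at 0 in knockout tissue, and the part of eosinophils in the Ccl11 values was not tested.

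Ligands of CCR1 and related receptors act on myeloid cells and T cells. Ccl9 (ENSMUSG00000019122), a CCR1 ligand of rodents, had 22.5, 23.7 and 23.9 CPM in knockout libraries, against 26.2, 33.5, 31.7 and 43.9 CPM in wild-type libraries. The knockout libraries were nearly level and all below the scattered wild-type ones. Its log2 change of -0.52 (SE 0.14, edgeR adjusted p = 0.0146) no longer passed without knockout library 2 or 3 (edgeR adjusted p = 0.0688 and 0.0509). Ccl6 (ENSMUSG00000018927), a related rodent ligand of CCR1, had 48.6, 52.4 and 51.8 CPM in knockout libraries, against 42.0, 50.6, 42.7 and 68.4 CPM in wild-type libraries. The means of both groups were 50.9 CPM, and the log2 change was 0.01 (SE 0.15, edgeR adjusted p = 0.971). Ccl5 (ENSMUSG00000035042), made mainly by T cells and macrophages, had 1.31, 0.673 and 2.35 CPM in knockout libraries, against 1.09, 1.56, 2.06 and 0.790 CPM in wild-type libraries. Both groups spread over the same range, and the log2 change was 0.14 (SE 0.40, edgeR adjusted p = 0.830). Ccl3 (ENSMUSG00000000982) had 0.173, 0.0336 and 0.0528 CPM in knockout libraries, against 0.104, 0.173, 0.0382 and 0.269 CPM in wild-type libraries. These are 8 and 26 counts over the groups, too few for the test.

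The ligands of lymphoid tissue include Cxcl13, which draws B cells into follicles through CXCR5, and Ccl25, a ligand of CCR9 known from thymus and gut. Cxcl13 (ENSMUSG00000023078) had 0.104, 0.404 and 0.475 CPM in knockout libraries, against 0.571, 1.12, 0.916 and 1.04 CPM in wild-type libraries. Knockout library 2 was the lowest, and the groups did not overlap. The log2 change of -1.43 (SE 0.44, edgeR adjusted p = 0.0250) rested on 33 counts in knockout and 143 in wild-type tissue, and the knockout libraries alone were too low to be tested. The call was lost without knockout libraries 2 or 3 or wild-type libraries 2 or 4 (edgeR adjusted p = 0.0582 to 0.0819). Against 13.3% of all genes, 3 of 14 B-cell markers were lower in the same libraries, with Fcmr and Fcrla among the 3. The 14 markers summed to 9.75, 11.5 and 26.0 CPM in knockout libraries 2, 3 and 4, against 23.0 to 37.2 CPM in wild-type libraries, with no marker at 0. Knockout library 4 lay within the wild-type range, and the part of B cells in the Cxcl13 values was not tested. Ccl25 (ENSMUSG00000023235) had 3.04, 3.33 and 2.43 CPM in knockout libraries, against 3.95, 3.98, 4.20 and 4.13 CPM in wild-type libraries. The groups did not overlap, yet the log2 change of -0.46 (SE 0.17) missed the threshold (edgeR adjusted p = 0.0588), and exons of Elavl1 overlap Ccl25 by 204 bases on the other strand. Ccl19, the CCR7 ligand, was tested at 0.158 to 0.269 CPM in knockout and 0.144 to 0.323 CPM in wild-type libraries, with a change of -0.37 in log2 terms (SE 0.49, edgeR adjusted p = 0.612).

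The ligands of skin and regulatory T-cell receptors gave 1 of the 2 rises. Ccl27a (ENSMUSG00000073888), a CCR10 ligand, had 7.33, 7.94 and 8.89 CPM in knockout libraries, against 6.31, 5.45, 5.38 and 6.5 CPM in wild-type libraries. Every knockout library lay above the wild-type range. Its log2 change of 0.45 (SE 0.14, edgeR adjusted p = 0.0232) no longer passed without knockout libraries 3 or 4 or wild-type libraries 2 or 3 (edgeR adjusted p = 0.0543 to 0.0774). Ccl27a has near-identical gene copies and its reads may have been split or dropped, so this level is uncertain. Ccl22 (ENSMUSG00000031779), a CCR4 ligand of dendritic cells and macrophages, had 1.62, 0.841 and 1.85 CPM in knockout libraries, against 0.493, 1.09, 1.07 and 0.431 CPM in wild-type libraries. Knockout library 3 lay within the wild-type range. The log2 change of 0.96 (SE 0.39) missed the threshold (edgeR adjusted p = 0.0786), but passed without knockout library 3 (log2 change 1.23, edgeR adjusted p = 0.0476).

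The membrane-anchored ligands moved in opposite directions. Cx3cl1 (ENSMUSG00000031778), the ligand of CX3CR1, had 8.92, 7.94 and 7.39 CPM in knockout libraries, against 4.36, 3.89, 4.81 and 3.18 CPM in wild-type libraries. All knockout libraries were clear of all wild-type ones. The means were 8.08 ± 0.776 CPM in knockout (SD, n = 3) and 4.06 ± 0.697 CPM in wild-type tissue (n = 4), a change of 1.02 in log2 terms (SE 0.16, edgeR adjusted p = 0.000503) that held in all 15 alternative fits. Cxcl16 (ENSMUSG00000018920), the ligand of CXCR6, had 2.66, 2.52 and 3.19 CPM in knockout libraries, against 3.87, 3.40, 5.53 and 3.95 CPM in wild-type libraries. The groups lay side by side with a narrow gap. Its log2 change of -0.56 (SE 0.20, edgeR adjusted p = 0.0476) no longer passed without knockout library 2 or 3 or wild-type library 1, 3 or 4 (edgeR adjusted p = 0.0585 to 0.151). Exons of Zmynd15 overlap Cxcl16 by 552 bases on the other strand, with a log2 change of -0.45 for Zmynd15 that did not pass (edgeR adjusted p = 0.349).

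Of the ligands of broad expression, Cxcl14 changed and Cxcl12 did not pass. Cxcl14 (ENSMUSG00000021508), made by epithelial and stromal cells, had 2.90, 3.09 and 2.95 CPM in knockout libraries, against 4.0, 7.23, 5.8 and 4.31 CPM in wild-type libraries. The knockout libraries were nearly equal, below every wild-type library. Its log2 change was -0.82 (SE 0.21, edgeR adjusted p = 0.0102), and it held without any single library. Epithelial markers summed to 3.11 to 4.56 CPM in knockout and 6.26 to 12.9 CPM in wild-type libraries, with Cdh1 lower among the 2 tested of 9 and Krt5 at 0 in knockout tissue. Over all genes 13.3% were lower, and 1 gene is no result about the list. The part of epithelial cells in the Cxcl14 values was not tested. Cxcl12 (ENSMUSG00000061353), the CXCR4 ligand, had 240, 255 and 217 CPM in knockout libraries, against 247, 298, 259 and 241 CPM in wild-type libraries. The groups overlapped, and the log2 change was -0.13 (SE 0.10, edgeR adjusted p = 0.374).

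The neutrophil attractants that act on CXCR2 were all scarce. Cxcl1 (ENSMUSG00000029380) had 0.415, 0.269 and 0.369 CPM in knockout libraries, against 0.597, 0.749, 0.839 and 0.808 CPM in wild-type libraries. The groups did not overlap, on 34 counts in knockout and 116 in wild-type tissue, and the knockout libraries alone were too low to be tested. The log2 change of -1.07 (SE 0.35, edgeR adjusted p = 0.0360) held without wild-type library 1 but was lost without any other inguinal library (edgeR adjusted p = 0.0523 to 0.122). Cxcl2 (ENSMUSG00000058427) had 0.207, 0.0673 and 0.0791 CPM in knockout libraries, against 0, 0.0288, 0.0382 and 0.251 CPM in wild-type libraries. These overlapping values come from 11 and 16 counts and were not tested. Neutrophil markers moved the other way from Cxcl1, with 3 of 6 tested higher (S100a9, Camp and Csf3r), against 15.3% of all genes. The neutrophil markers summed to 8.71 to 9.82 CPM in knockout and 5.40 to 7.40 CPM in wild-type libraries.

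Only Cxcl9 and Cx3cl1 held the inguinal call in every alternative fit. With all 4 groups in 1 fit, where the spread of the brown libraries enters, the other 10 calls were lost, with edgeR adjusted p from 0.102 for Cxcl16 to 0.466 for Cxcl14. With limma-voom the calls of Ccl12, Cxcl13 and Cxcl16 were lost (limma-voom adjusted p = 0.0586, 0.0681 and 0.106). With the replicate number as a block those of Cxcl1 and Cxcl16 were lost (edgeR adjusted p = 0.0625 and 0.0609). Without the count filter that of Cxcl1 was lost (edgeR adjusted p = 0.0635). With 1 library left out, 7 to 11 members passed.

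**Figure D3:**
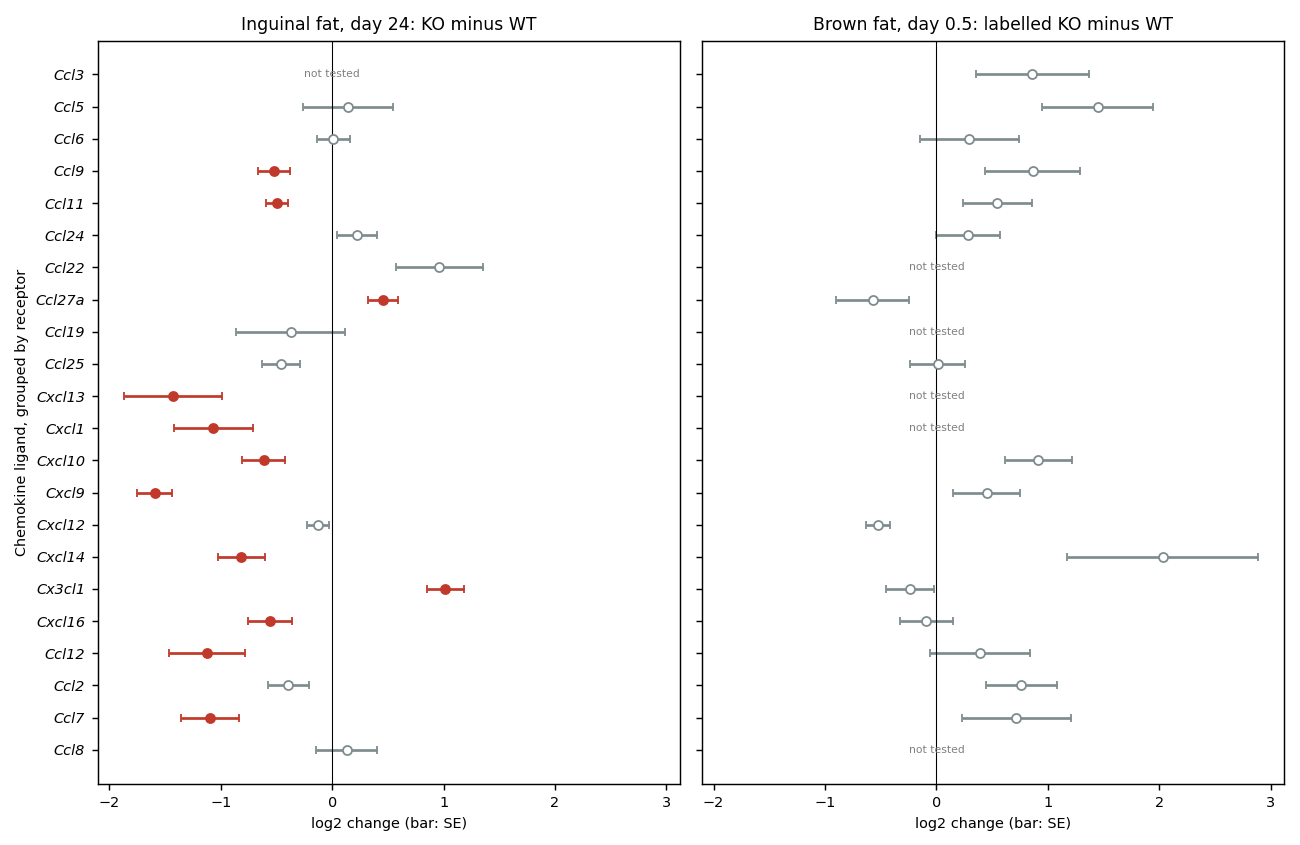
Log2 change with its SE for the 22 members tested in at least 1 of the depots, in inguinal fat (left, knockout minus wild type) and brown fat (right, labelled knockout minus wild type). Filled red points passed at an adjusted p below 0.05, open grey points did not. In inguinal fat 10 members are left of 0 and 2 right of 0 among the filled points, and in brown fat no point is filled.

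In newborn brown fat no chemokine ligand passed. Of the 34 members, 17 were tested and 0 were called by edgeR, against 0.26% of 15796 genes in either direction, 0.184% higher and 0.076% lower. At an unadjusted p below 0.05 there were 5 members, against 18.5% of genes. DESeq2's Wald test called 2 members, and limma-voom called 4. The log2 change was positive for 13 tested members and negative for 4, with a median of 0.45, beside 0.01 for all genes. The groups were separate for Cxcl10 upward and Cxcl12 downward, against 4.88% and 4.86% of genes.

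Cxcl12 had 69.9, 69.8, 76.8 and 62.1 CPM in labelled knockout libraries 1 to 4, against 91.1, 108, 91.0 and 108 CPM in wild-type libraries 1 to 4. The groups were tight and apart. The log2 change was -0.52 (SE 0.11, edgeR adjusted p = 0.0720), and it passed with the DESeq2 Wald test (adjusted p = 0.00116), limma-voom (adjusted p = 0.00795), all 4 groups in 1 fit (edgeR adjusted p = 0.00930) and without labelled knockout library 1 (edgeR adjusted p = 0.0109). Cxcl10 had 3.0, 5.19, 2.90 and 3.10 CPM in labelled knockout libraries, against 1.36, 1.56, 2.87 and 1.68 CPM in wild-type libraries. Labelled knockout library 2 was far above the others, and wild-type library 3 reached almost to the lowest labelled knockout library. The log2 change of 0.91 (SE 0.30) had an edgeR adjusted p of 0.161, and it passed in the same 4 alternatives (adjusted p = 0.0333 to 0.0495). Cxcl9 had 6.69, 9.59, 9.66 and 3.57 CPM in labelled knockout libraries, against 5.32, 6.19, 5.96 and 4.01 CPM in wild-type libraries. Labelled knockout library 4 was the lowest of the 8 and the other 3 the highest, with a change of 0.45 in log2 terms (SE 0.30, edgeR adjusted p = 0.446).

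The ligands of CCR1 and CCR3 varied widely within the labelled knockout group. Ccl9 had 7.41, 36.3, 22.7 and 35.9 CPM in labelled knockout libraries, against 13.5, 19.1, 10.7 and 12.8 CPM in wild-type libraries. Labelled knockout library 1 was the lowest of the 8 brown libraries and the other 3 the highest. The log2 change was 0.86 (SE 0.43, edgeR adjusted p = 0.315), and without labelled knockout library 1 it was 1.17 and passed (edgeR adjusted p = 0.00771). Ccl6 had 3.28, 19.6, 16.5 and 13.2 CPM in labelled knockout libraries, against 7.05, 12.9, 11.5 and 11.2 CPM in wild-type libraries. It showed the same order, with a change of 0.30 in log2 terms (SE 0.45, edgeR adjusted p = 0.762), and 0.62 without labelled knockout library 1 (edgeR adjusted p = 0.0646). Ccl11 had 5.81, 12.1, 4.79 and 11.6 CPM in labelled knockout libraries, against 5.32, 7.75, 4.85 and 5.44 CPM in wild-type libraries. Labelled knockout libraries 2 and 4 were above all others, and the log2 change was 0.55 (SE 0.31, edgeR adjusted p = 0.377). Ccl24 had 1.38, 0.719, 0.812 and 1.26 CPM in labelled knockout libraries, against 0.678, 0.841, 0.917 and 0.980 CPM in wild-type libraries. These values overlapped, with a change of 0.28 in log2 terms (SE 0.29, edgeR adjusted p = 0.641), or 0.12 without labelled knockout library 1 (edgeR adjusted p = 0.813).

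Among brown CCR2 ligands, Ccl2 had 1.84, 3.84, 2.06 and 2.48 CPM in labelled knockout libraries, against 1.55, 2.22, 1.26 and 0.980 CPM in wild-type libraries. Wild-type library 2 overlapped the labelled knockout range. Its log2 change of 0.76 (SE 0.32) did not pass with edgeR (adjusted p = 0.241) and passed with limma-voom (adjusted p = 0.0337). Ccl7 had 1.18, 3.59, 1.43 and 1.86 CPM in labelled knockout libraries, against 1.25, 2.34, 0.774 and 0.537 CPM in wild-type libraries. Ccl12 had 0.688, 2.09, 1.22 and 1.44 CPM in labelled knockout libraries, against 0.949, 1.89, 0.459 and 0.840 CPM in wild-type libraries. Library 2 was the highest of its group for all 3 genes in both groups, and the log2 changes of Ccl7 and Ccl12 were 0.72 (SE 0.49) and 0.39 (SE 0.45), with edgeR adjusted p of 0.461 and 0.684. Without labelled knockout library 1 the change of Ccl12 was 0.61 (edgeR adjusted p = 0.336). Ccl8, the CCR8 ligand, had 0, 0.656, 0.0541 and 0.173 CPM in labelled knockout libraries, against 0.0542, 0.150, 0.143 and 0.187 CPM in wild-type libraries. It had 30 and 20 counts over the groups and was not tested.

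Ccl5 had 0.523, 0.656, 1.19 and 0.470 CPM in labelled knockout libraries, against 0.108, 0.150, 0.487 and 0.280 CPM in wild-type libraries. The groups overlapped slightly at wild-type library 3, and the log2 change was 1.45 (SE 0.50, edgeR adjusted p = 0.175). Ccl3, which myeloid cells release on activation, had 1.05, 0.594, 0.352 and 0.223 CPM in labelled knockout libraries, against 0.461, 0.330, 0.229 and 0.187 CPM in wild-type libraries. Here labelled knockout library 1 was the highest, and the log2 change was 0.86 (SE 0.51, edgeR adjusted p = 0.392), or 0.35 without it (edgeR adjusted p = 0.648). Ccl27a had 8.37, 3.41, 4.11 and 3.32 CPM in labelled knockout libraries, against 8.98, 8.14, 6.82 and 4.53 CPM in wild-type libraries. Labelled knockout library 1 lay in the wild-type range and the other 3 below it. The log2 change was -0.57 (SE 0.33, edgeR adjusted p = 0.380), and without that library -0.98 (edgeR adjusted p = 0.0199). Cx3cl1 had 5.48, 3.41, 3.36 and 3.14 CPM in labelled knockout libraries, against 5.34, 4.41, 3.99 and 4.32 CPM in wild-type libraries. Library 1 was again the high one, and the log2 change was -0.24 (SE 0.22, edgeR adjusted p = 0.593), or -0.46 without it (edgeR adjusted p = 0.0936).

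Cxcl14 had 0.743, 0.750, 0.541 and 6.73 CPM in labelled knockout libraries, against 0.814, 0.661, 0.229 and 0.443 CPM in wild-type libraries. Labelled knockout library 4 alone was high, and the log2 change of 2.03 (SE 0.85, edgeR adjusted p = 0.246) was 0.33 without it. In that library the 9 epithelial markers summed to 245 CPM, against 2.14 to 4.46 CPM in the other labelled knockout and 3.08 to 4.14 CPM in the wild-type libraries, and their part in the Cxcl14 value was not tested. Cxcl16 had 1.87, 1.69, 1.22 and 1.78 CPM in labelled knockout libraries, against 1.55, 1.35, 2.06 and 1.98 CPM in wild-type libraries, with a change of -0.09 in log2 terms (SE 0.24, edgeR adjusted p = 0.866), or -0.16 without labelled knockout library 1 (edgeR adjusted p = 0.700). Ccl25 had 2.84, 2.0, 2.63 and 2.08 CPM in labelled knockout libraries, against 1.93, 3.42, 1.95 and 2.15 CPM in wild-type libraries, with a change of 0.01 in log2 terms (SE 0.25, edgeR adjusted p = 0.988), or -0.08 without labelled knockout library 1 (edgeR adjusted p = 0.858). For both genes the ranges overlapped widely.

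The scarcest brown members were not tested in the brown fit. Cxcl1 had 0.138, 0.719, 0.244 and 0.495 CPM in labelled knockout libraries, against 0.0814, 0.0901, 0.201 and 0.117 CPM in wild-type libraries. Cxcl2 had 0.220, 1.37, 0.406 and 0.322 CPM in labelled knockout libraries, against 0.217, 0.18, 0.0287 and 0 CPM in wild-type libraries. Cxcl13 had 0.110, 0.625, 0.189 and 1.31 CPM in labelled knockout libraries, against 0, 0.150, 0.0287 and 0.0933 CPM in wild-type libraries. For Cxcl1 and Cxcl2 labelled knockout library 2 was the highest, for Cxcl13 library 4, and the wild-type groups held only 18, 15 and 10 counts. Ccl22 had 0.0551, 0.156, 0.162 and 0.124 CPM in labelled knockout libraries, against 0.0271, 0, 0.0287 and 0.187 CPM in wild-type libraries, on 18 and 10 counts. Without labelled knockout library 1, Cxcl2 was tested and missed the threshold (log2 change 2.70, edgeR adjusted p = 0.0529). With all 4 groups in 1 fit, Cxcl1 and Cxcl13 were tested and passed (log2 changes 1.67 and 3.0, edgeR adjusted p = 0.0490 and 0.0391).

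Without labelled knockout library 1, 4 members passed in brown tissue, Ccl9 and Cxcl10 higher and Ccl27a and Cxcl12 lower. Over all genes that fit called 2905, against 41 with every library, so the larger number of members went with a larger number of calls in general.

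The question whether the knockout effect differed between the depots was tested by the interaction term, the inguinal effect minus the brown effect, in a fit of all 4 groups. Of 23 members tested, 5 passed, 1 higher and 4 lower, against 4.8% and 4.2% of 16858 genes (9% in either direction). At an unadjusted p below 0.05 there were 13 members, against 25.7% of genes. Cxcl9 differed by -2.07 (SE 0.37, edgeR adjusted p = 0.00445) and Cx3cl1 by 1.23 (SE 0.28, edgeR adjusted p = 0.0148), and both calls held in all 22 alternative fits. Cxcl10 differed by -1.55 (SE 0.38, edgeR adjusted p = 0.0192), being lower in inguinal knockout and, without passing, higher in brown labelled knockout tissue. Cxcl1 differed by -2.75 (SE 0.67, edgeR adjusted p = 0.0190) and Cxcl13 by -4.44 (SE 1.09, edgeR adjusted p = 0.0205). These 3 calls depended on inguinal knockout library 3, without which none held (edgeR adjusted p = 0.0698 for Cxcl10, 0.0630 for Cxcl1 and 0.0535 for Cxcl13), and that of Cxcl13 also on library 2 (0.0561). Because the brown wild-type counts of Cxcl1 and Cxcl13 were low, the size of their differences is uncertain. Without brown labelled knockout library 1, 12 members passed, 2 higher and 10 lower, while 3571 genes passed in that fit, against 1517 with every library. Without brown wild-type library 2 there were 9 members and 1727 genes.

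Between wild-type tissues, inguinal fat at day 24 held more of 17 ligands than brown fat at day 0.5, and less of none. Of 20 members tested, 17 were higher and 0 lower, against 30.7% and 30.7% of 15979 genes, and 61.4% in either direction. Members that passed the filter on low counts only through the inguinal libraries had to differ, so this count is no measure of the family. The 17 were also those whose groups did not overlap, against 28.6% of genes higher and 27.7% lower. At an unadjusted p below 0.05 there were 17 members, against 65.2% of genes. Ccl8, Cxcl13, Ccl22 and Cxcl1 had only 20, 10, 10 and 18 counts over the 4 brown libraries, so their fitted differences of 4.90, 3.69, 3.43 and 2.58 are a description and their size is uncertain. Ccl8 had 2.44 to 6.60 CPM in inguinal and 0.0542 to 0.187 CPM in brown libraries. The more abundant Cxcl9 differed by 2.49 (SE 0.16, edgeR adjusted p = 2.27e-07), Ccl6 by 2.26, Ccl11 by 2.23 and Cxcl12 by 1.39 (SE 0.09, edgeR adjusted p = 1.83e-07). The other members that passed ran from 0.78 for Ccl25 to 3.30 for Cxcl14. Ccl12 (0.73, edgeR adjusted p = 0.101), Ccl27a (-0.26, edgeR adjusted p = 0.257) and Cx3cl1 (-0.16, edgeR adjusted p = 0.414) did not pass, although Ccl12 passed without brown wild-type library 2 (edgeR adjusted p = 0.00604) and Ccl27a without brown wild-type library 4 (edgeR adjusted p = 0.0269). Of the B-cell and T-cell markers 13 and 12 of 14 each were higher in inguinal wild-type tissue, and 8 of 13 macrophage and monocyte markers, while 8 of 9 neutrophil markers tested were lower. In the brown fit only 8 of the B-cell and 5 of the T-cell markers had enough counts to be tested. Markers that passed the filter only through the depot where they are high had to differ, so these counts are no measure of the cells. The part of these cells in the ligand differences was not tested.

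The receptors were examined as the other side of the pathway. Of 18 typical chemokine receptors 13 were tested in inguinal tissue, with 3 lower and 0 higher, against 13.3% and 15.3% of all genes. Their median log2 change was -0.37. Ccr2, the monocyte receptor for CCL2, CCL7 and CCL12, averaged 6.5 ± 2.45 CPM in knockout (SD, n = 3) and 13.8 ± 2.02 CPM in wild-type tissue (n = 4), a change of -1.07 in log2 terms (SE 0.22, edgeR adjusted p = 0.00414) that held without any single library but not with all 4 groups in 1 fit (edgeR adjusted p = 0.0513). Cx3cr1, the receptor of CX3CL1, averaged 1.18 ± 0.402 CPM in knockout and 2.19 ± 0.382 CPM in wild-type tissue. It moved opposite to its ligand, by -0.87 (SE 0.27, edgeR adjusted p = 0.0258), a call lost without knockout libraries 3 or 4 or wild-type libraries 2 or 3 (0.0546 to 0.114), or with all 4 groups in 1 fit (0.135). Cxcr3, the receptor of CXCL9 and CXCL10, stood at 0.538 to 0.899 CPM in knockout and 0.801 to 1.10 CPM in wild-type libraries. Ccr10, the CCL27 receptor, had a log2 change of 0.50 (edgeR adjusted p = 0.0624), Cxcr6 of -1.15 (0.101) and Cxcr5 of -0.56 (0.244), which did not pass. In brown tissue 9 receptors were tested and 0 passed with edgeR, against 0.26% of all genes, so this count is no result about the receptors. Cx3cr1 there was 1.71 to 7.49 CPM in labelled knockout and 7.98 to 10.7 CPM in wild-type libraries (log2 change -1.04, edgeR adjusted p = 0.175). Between wild-type tissues 7 of 12 receptors tested were higher in inguinal fat and 3 lower, against 30.7% and 30.7% of all genes. Receptors that passed the filter on low counts only through the inguinal libraries had to differ, so this count is no measure of the receptors. Ccr2 differed by 2.28 and Cx3cr1 by -2.12.

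**Figure D4:**
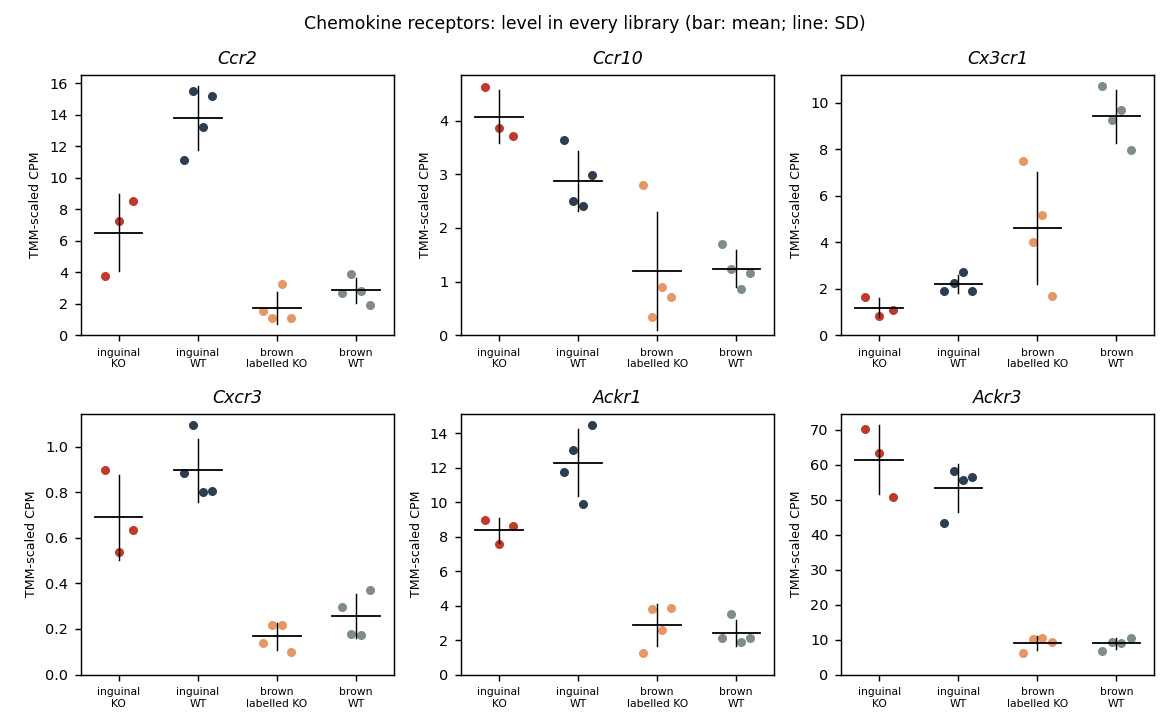
TMM-scaled CPM of 4 typical receptors and 2 atypical receptors in every library of the 4 groups, with a bar at the mean and a line for 1 SD. Ccr2 lies below 9 CPM in the inguinal knockout libraries and above 11 CPM in the inguinal wild-type libraries, and Cx3cr1 is highest in brown wild-type tissue.

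Atypical receptors bind chemokines without moving cells. All 6 were tested in inguinal tissue and 1 was lower, a share near the 13.3% of all genes. The lower one was Ackr1, which displays chemokines on venules. It averaged 8.38 ± 0.725 CPM in knockout and 12.3 ± 1.95 CPM in wild-type tissue (log2 change -0.54, SE 0.14, edgeR adjusted p = 0.0118), a call lost without knockout library 3 (0.0595) or with all 4 groups in 1 fit (0.221). Ackr3, a scavenger of CXCL12, averaged 61.5 ± 9.88 CPM in knockout and 53.4 ± 6.86 CPM in wild-type tissue and did not pass (edgeR adjusted p = 0.222). In brown tissue 0 of 6 passed with edgeR, against 0.26% of all genes, so this count is no result about these receptors. Between wild-type tissues 4 of 6 were higher in inguinal than in brown fat, against 30.7% of all genes. Of 25 signalling and processing genes 24 were tested in inguinal tissue, with 5 higher and 3 lower, shares near the 15.3% and 13.3% of all genes, so the count is no result about the list. The higher ones were the receptor kinases Grk3 (1.06, edgeR adjusted p = 0.000503) and Grk5 (0.51), the arrestin gene Arrb1 (0.40), Sdc4 (1.37), a heparan sulfate proteoglycan, and Ndst1 (0.53), an enzyme that modifies heparan sulfate. Lower were Elmo1, a migration adaptor (-0.52, edgeR adjusted p = 0.00174), Arrb2 (-0.38) and Adam10, which sheds CX3CL1 and CXCL16 from the membrane (-0.32, edgeR adjusted p = 0.0437). The calls of Arrb2 and Adam10 were lost in 5 and 6 of the 7 fits without 1 library, and both, with that of Arrb1, were lost with all 4 groups in 1 fit (0.0605 to 0.0825). In brown labelled knockout tissue Rgs1 was higher (3.69, edgeR adjusted p = 0.0414) and Grk3 lower (-1.34, edgeR adjusted p = 0.0255), and Grk3 differed between the depots by 2.37 (SE 0.25, edgeR adjusted p = 7.01e-05). Rgs1 stood at 0.91 to 2.47 CPM in labelled knockout and 0.0467 to 0.270 CPM in wild-type brown libraries. It passed the count filter only through the labelled knockout libraries, so its call is a description and the size of its change is uncertain. Rgs1 lost its call when any 1 library but labelled knockout 1 was left out (0.0516 to 0.141), and Grk3 without labelled knockout library 2 or 4 or wild-type library 2 or 3 (0.0516 to 0.115).

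The last list held inducers of chemokine genes and their receptors. In inguinal tissue 20 of 26 were tested, with 2 higher and 0 lower. Over all genes 15.3% were higher and 13.3% lower, so this count is no result about the list. Among the 2 was Map3k14, a kinase of the non-canonical NF-kB pathway, with a log2 change of 0.42 (edgeR adjusted p = 0.0277). Its call was lost without knockout library 3 or 4 or wild-type library 3 or 4 (0.0539 to 0.0853), or with all 4 groups in 1 fit (0.0670). Ifng, the interferon-gamma gene, had 0 counts in inguinal knockout, brown labelled knockout and brown wild-type tissue and at most 0.0382 CPM in an inguinal wild-type library. Irf1, an interferon-response factor, was 59.7 to 74.2 CPM in knockout and 60.4 to 69.4 CPM in wild-type inguinal libraries. In brown tissue 1 of 19 was higher, Nfkbia, an NF-kB target and inhibitor, at 79.4 ± 13.7 CPM in labelled knockout and 31.9 ± 4.89 CPM in wild-type tissue (log2 change 1.31, edgeR adjusted p = 0.0187). Its call held without labelled knockout library 1 or 3 and was lost without any other brown library (0.0505 to 0.0845). Its effects differed between the depots by -1.32 (SE 0.19, edgeR adjusted p = 0.00107), as did those of Nfkb2 (-0.82), Ifngr1 (-0.90) and Il1b (3.31). For this interaction 21 of the list were tested, with 1 higher and 3 lower, against 4.8% and 4.2% of all genes. Il1b was scarce, at 0.0576 to 0.153 CPM in inguinal wild-type and 0.26 to 0.94 CPM in inguinal knockout libraries. The size of its difference is therefore uncertain.

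Cell type markers were also called in inguinal tissue, lower in some lists and higher in others. Over all genes tested 13.3% were lower and 15.3% higher. For dendritic cells, lymphatic endothelium, lymph node stroma, adipocytes, innate lymphoid type 2 and erythroid cells the counts lie near these shares or are small. They are no result about those cells. Skeletal muscle had 10 of 12 markers lower, a median log2 change of -2.62 (-0.02 over all genes), and sums of 40.1 to 45.8 CPM in knockout and 132 to 365 CPM in wild-type libraries. Blood endothelium had 5 of 9 lower (Esam, Cldn5, Tie1, Tek and Kdr), with a median of -0.27 and sums of 934 to 1024 CPM in knockout and 1080 to 1337 CPM in wild-type libraries. Of the lymph node stroma and high endothelial venule list, 1 of 5 tested was lower, Cd300lg, and the median was -0.49. The 10 genes summed to 129 to 139 CPM in knockout and 208 to 235 CPM in wild-type libraries, with Chst4 at 0 in the wild type. They summed to 153 to 217 CPM in brown wild-type tissue, with Glycam1 and Chst4 at 0. The sum is therefore not particular to lymph node or its venules. Mast cell markers were higher for 4 of 7 tested (Cpa3, Mcpt4, Tpsb2 and Cma1), with a median of 1.21 and sums of 104 to 121 CPM in knockout and 54.4 to 63.3 CPM in wild-type libraries. T-cell markers had 0 of 14 called by edgeR, a median of 0.13, and sums of 19.97 to 42.3 CPM in knockout and 19.7 to 33.9 CPM in wild-type libraries. Dendritic cells had 1 of 9 lower, Cd209a, with a median of -0.32 and sums of 47.4 to 51.8 CPM in knockout and 46.9 to 59.2 CPM in wild-type libraries. Adipose progenitors had 1 higher and 4 lower of 12, brown adipocyte markers 5 higher of 9, adipocyte markers 3 higher of 10, and lymphatic endothelium 1 higher and 1 lower of 6 tested. The innate lymphoid type 2 and erythroid lists had 0 of 5 and 0 of 7 called by edgeR. In brown tissue edgeR called 0 markers of every cell type list, against 0.26% of all genes, so these counts are no result about the cells. These genes were named after their values were seen, and the part of the cells in the ligand values was not tested.

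**Figure D5:**
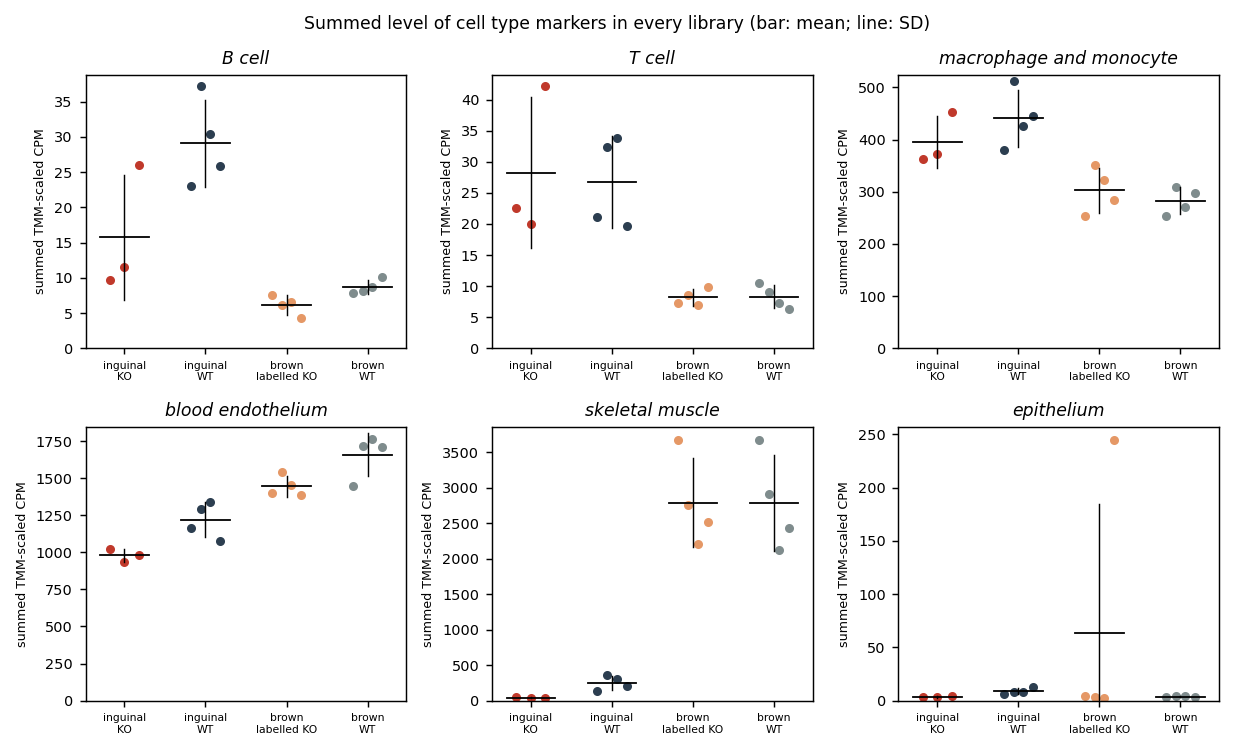
Summed TMM-scaled CPM of 6 cell type marker lists in every library of the 4 groups, with a bar at the mean and a line for 1 SD. Inguinal knockout libraries lie below the wild-type ones for blood endothelium, skeletal muscle and epithelium, and 1 brown labelled knockout library stands at 245 CPM for epithelium.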

How the data were processed

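The authors deposited raw read counts per gene for 15 RNA-sequencing libraries, made with the TruSeq stranded mRNA kit per the labels' protocols. Per the submitters' processing notes, TopHat2 2.1.0, Subread, featureCounts, edgeR and the build mm9 were used. Which annotation release was counted, and whether with strand, no source used here says. Symbols, biotypes, exon lengths and overlaps were taken from GENCODE for GRCm38 by Ensembl identifier, which gave 32919 of 37991 rows a symbol. Totals were 26059635 to 53923009 counts per library, and limits set by a count of 0 cover counting error only.

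Levels are TMM-scaled CPM over all libraries, while the mean of 0.5 CPM used the library total. Fits used only the libraries of the comparison, in edgeR 4.0.16 under R 4.3.3, with filterByExpr at a minimum count of 10, TMM, a robust quasi-likelihood F-test and Benjamini-Hochberg adjustment over every gene tested. The interaction used all 4 groups. The code was tested on simulated data. Alternatives were DESeq2 1.42.0 (its test and its size factors), limma-voom 3.58.1, other filters, a non-robust fit, a replicate block, all 4 groups in 1 fit, and each library left out. Standard errors were taken as the absolute log2 change over the root of the F statistic.

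Values per library are given for members that passed in a comparison or reached a mean of 0.5 CPM in a group. The other members are given by name and range, up to 6 genes of each pathway list by the smallest p, and cell type lists by counts and sums. Further genes were named after their values were seen. The members and lists were chosen with earlier results of these data known. No 2 libraries of a group agreed within counting noise. Some genes of the lists are counted but not reported here by name.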

Additional observations from a re-analysis of the deposited data

Results flagged for a closer look

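In 66 sets of 4 libraries, 10 had a library far from the other 3 by Dixon's criterion, and chance gives about 1 in 20. In brown labelled knockout library 1, Ccl27a stood at 8.37 CPM (the others at 3.32 to 4.11) and Cx3cl1 at 5.48 CPM (the others at 3.14 to 3.41). In brown labelled knockout library 2, Cxcl10 stood at 5.19 CPM (2.90 to 3.10) and Cxcl2 at 1.37 CPM (0.220 to 0.406). In brown labelled knockout library 4, Cxcl14 stood at 6.73 CPM (0.541 to 0.750). In inguinal wild-type library 4, Ccl2 stood at 8.26 CPM (5.49 to 5.70) and Cxcl2 at 0.251 CPM (0 to 0.0382). Cxcl10 in inguinal wild-type library 2 stood at 6.94 CPM (4.69 to 4.97). Among brown wild-type libraries, Ccl25 stood at 3.42 CPM in library 2 (1.93 to 2.15) and Ccl22 at 0.187 CPM in library 4 (0 to 0.0287).

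The knockout effect differed between inguinal and brown fat by the interaction test for 5 members. The inguinal minus brown difference in log2 change was 1.23 for Cx3cl1, -2.07 for Cxcl9, -1.55 for Cxcl10, -2.75 for Cxcl1 and -4.44 for Cxcl13 (edgeR adjusted p = 0.0148, 0.00445, 0.0192, 0.0190 and 0.0205).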

How the results depend on the processing

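The number of ligands called in inguinal fat was 12 and became 2 with all 4 groups in 1 fit, 9 with limma-voom, 13 with DESeq2 and 7 to 11 with 1 library left out. In brown fat the count of 0 became 4 when all 4 groups were fitted together, 2 with DESeq2, 4 with limma-voom, and 0 to 4 with 1 library left out (4 without labelled knockout library 1). For the interaction the count of 5 became 3 with a filter at 0.5 CPM, 10 with DESeq2, 12 with limma-voom, and 2 to 12 with 1 library left out. With the replicate number as a block, 10 ligands passed in inguinal fat, 0 in brown fat, 9 for the interaction and 17 between the wild-type depots. The correlations of the deviations of same-numbered libraries ran from -0.072 to 0.141. Differently numbered libraries were not compared, so these values do not settle whether the numbers pair the samples. Over all genes the 41 brown calls became 1032 with DESeq2, 3127 with limma-voom, 67 without the count filter, 7 with the block, 1151 with all 4 groups, and 2 to 2905 with 1 library left out. The 4498 inguinal calls became 2249 with all 4 groups. The 1517 interaction calls became 2351 with DESeq2, 3696 with limma-voom, and 632 to 3571 with 1 library left out. Among the inguinal and brown changes, 5 small uncalled ones took the other sign under an alternative. In brown fat, Ccl25 (0.01) was -0.0035 with limma-voom and -0.081 to 0.24 with 1 library left out, and Cxcl16 (-0.09) was -0.20 to 0.024. In inguinal fat, Ccl5 (0.14) was -0.41 to 0.48 with 1 library left out. Ccl6 (0.01) was -0.00024 with all 4 groups, -0.045 with the block and -0.080 to 0.19 with 1 library left out. Ccl8 (0.13) was -0.017 with the block and -0.063 to 0.44 with 1 library left out. Of the uncalled interaction differences, those of Ccl8, Ccl19, Ccl22 and Ccl24 also took both signs among the alternatives. Between the wild-type depots each of the 17 calls held wherever the gene was tested. The cause of these changes was not tested. Depth limits, among others, Cxcl1, Cxcl2, Cxcl13, Ccl3, Ccl19, Ccl22 and the brown values of Ccl5 and Ccl8, each with under 150 counts in every group concerned.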
